A study of Mus musculus with 2 samples.

Results

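Metalloproteases are enzymes that use a zinc ion to cut proteins outside the cell or at its surface, and the tissue inhibitors of metalloproteinases (TIMPs) block them. The genes described here are the 44 protein-coding genes of the deposited table whose symbols begin with Adam, Adamts or Mmp and a number or suffix, or are Timp with a number, Mme or Bace with a number, out of 9388 protein-coding genes and 10627 genes in all. The read densities of the KO and WT libraries brought these families to attention, so their differences between the 2 libraries are a description and carry no test. By family they were 9 Adam, 17 Adamts, 4 Adamtsl, 9 Mmp and 3 Timp genes with Mme and Bace2. The mouse annotation GENCODE vM21 holds 86 genes with matching symbols, and the other 42 are not analysed here. The deposited table lists only genes with a corrected p-value up to 0.0499827 in the authors' comparison, and the largest corrected p-value among the 44 genes in the authors' deposited table was 0.0422, for Adamts20.

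RNA was sequenced from sorted nephron progenitors, the Six2-positive cells of the kidney that give rise to nephrons, at embryonic day 15.5. The KO group carried the alleles Six2CreGFP+ and p53f/f, in which Cre, driven by Six2, deletes floxed p53 in these cells. The WT group carried Six2CreGFP+ and p53+/+, so both groups carried the Cre and GFP transgene, both came from mixed CD1 and C57BL mice, and both were collected by flow sorting. There was 1 library per group, and the number of embryos behind each is not given in the sources used here. No difference below has a replicate check, and the intervals printed cover counting error only.

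The p53 gene Trp53 had a density of 5.38 RPKM in KO and 33.9 RPKM in WT, where RPKM is a read count scaled to gene length and library depth. Six2 was at 509 RPKM in KO and 482 RPKM in WT. The implied depths were about 85600000 reads in KO and about 91200000 reads in WT. Markers of cell types other than nephron progenitors were lower in KO in 70 of 72 listed genes, against 63.7% of all listed protein-coding genes. By summed density these lists stood at 23.9 RPKM in KO and 631 RPKM in WT for erythroid cells (8 of 8 lower), 11.8 RPKM in KO and 25.4 RPKM in WT for endothelium (12 of 12 lower), and 79.2 RPKM in KO and 88.0 RPKM in WT for ureteric bud (9 of 10 lower). In the ureteric bud list most of the sum came from Hoxb7 and Etv5. Hoxb7 was at 28.59 RPKM in KO and 31.01 RPKM in WT, and Etv5 at 41.8 RPKM in KO and 40.5 RPKM in WT. The other genes of that list had ratios of KO to WT density from 0.269 (Aqp2) to 0.816 (Wnt11), so they differed more than the sum. Nephron progenitor markers summed to 1215 RPKM in KO and 1158 RPKM in WT, with 6 of 11 higher in KO. Stromal, leukocyte, podocyte and tubule markers stand beside the results they touch. Fewer cells of a type and less RNA per cell cannot be told apart in such bulk libraries.

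In the developing kidney the balance of these enzymes and inhibitors shapes the matrix around the branching ureteric bud and the condensing progenitors. The membrane-anchored ADAMs release growth factors and cut Notch and cadherins at the cell surface. The secreted ADAMTS enzymes process proteoglycans, procollagens and fibrillin microfibrils, and the matrix metalloproteinases (MMPs) cut collagens and other matrix proteins. Proteases of the ADAM, ADAMTS and MMP families share a zinc-binding site built on 3 histidines and a catalytic glutamate.

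The coding stretch of that site is shown for members whose values the text turns on, since it sets the proteases apart from the relatives that cannot cut. Each is written from the longest coding sequence of the gene in GENCODE vM21 transcripts (GRCm38), 5′ to 3′, with the histidine codons in capitals.
Adamts17: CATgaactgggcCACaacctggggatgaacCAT
Adam10: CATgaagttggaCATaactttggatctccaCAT
Mmp14: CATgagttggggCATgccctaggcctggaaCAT
Mmp2: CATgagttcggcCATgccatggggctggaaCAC
Adamts1: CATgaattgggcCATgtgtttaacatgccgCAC
Adamts4: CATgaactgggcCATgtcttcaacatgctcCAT
Adamts5: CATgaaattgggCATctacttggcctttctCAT
Mme: CATgaaatcacaCAT

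The full site of 11 codons was found in 31 of the 44 members, against 0.445% of all 21560 genes with a complete coding sequence. The eighth codon was a glycine codon in 26 of the 31 and an asparagine codon in the other 5, which were Adamts1, Adamts4, Adamts9, Adamts15 and Adamts20. These 5 are all from the group of ADAMTS enzymes that cut proteoglycans such as versican and aggrecan, while Adamts5 of the same group has the glycine codon. The stretches of Adamts1 and Adamts4 matched at 27 of 33 bases, and so did those of Mmp14 and Mmp2. Adamts17 matched Adam10 at 20 of 33 bases. Mme, which belongs to another branch of zinc peptidases, has only the first part of the site with 2 histidines. The other 12 members without the full site were Adam4, Adam11, Adam22, Adam23, Adamtsl1, Adamtsl3, Adamtsl4, Adamtsl5, Bace2, Timp1, Timp2 and Timp3. Bace2 is an aspartyl protease and is a member by its symbol alone. Of the 31 genes with the full site 26 were lower in KO, with a median difference of -0.22 on the log2(density + 1) scale. Of the 13 without it 11 were lower, with a median of -0.19.

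Across all 44 members, 37 had a lower density in KO and 7 a higher one. The lower share of 84.1% stood beside 63.7% of all listed protein-coding genes. The median difference, log2(KO + 1) minus log2(WT + 1), was -0.21 over the members and -0.11 over all listed protein-coding genes. At 1.5-fold on that scale, which holds back genes of low density, 1 member was higher in KO, Adamts17, where 0.639% of all listed protein-coding genes were. Only Mme and Timp3 of the 44 were at least 1.5-fold lower on that scale, or 4.55% of members beside 5.6% of all listed protein-coding genes. The members just short of that limit on the lower side were Adamtsl4 and Adamts4, with differences of -0.56 and -0.55. With the authors' own scaling of the densities, 36 members were lower, since Adamts1 then had a difference of 0.0031. With the plain ratios centred on their median over all listed protein-coding genes, -0.145 on the log2 scale, 32 members were lower, beside 50% of those genes by construction. The 5 that turned higher on this centring were Adamts1, Adamts9, Mmp11, Mmp15 and Timp2. Exons of 8 members (Adam15, Adam19, Adamts4, Adamts7, Adamts9, Mmp11, Mmp28 and Timp3) overlap another gene on the opposite strand, so their values may hold reads of that gene.

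**Figure D1:**
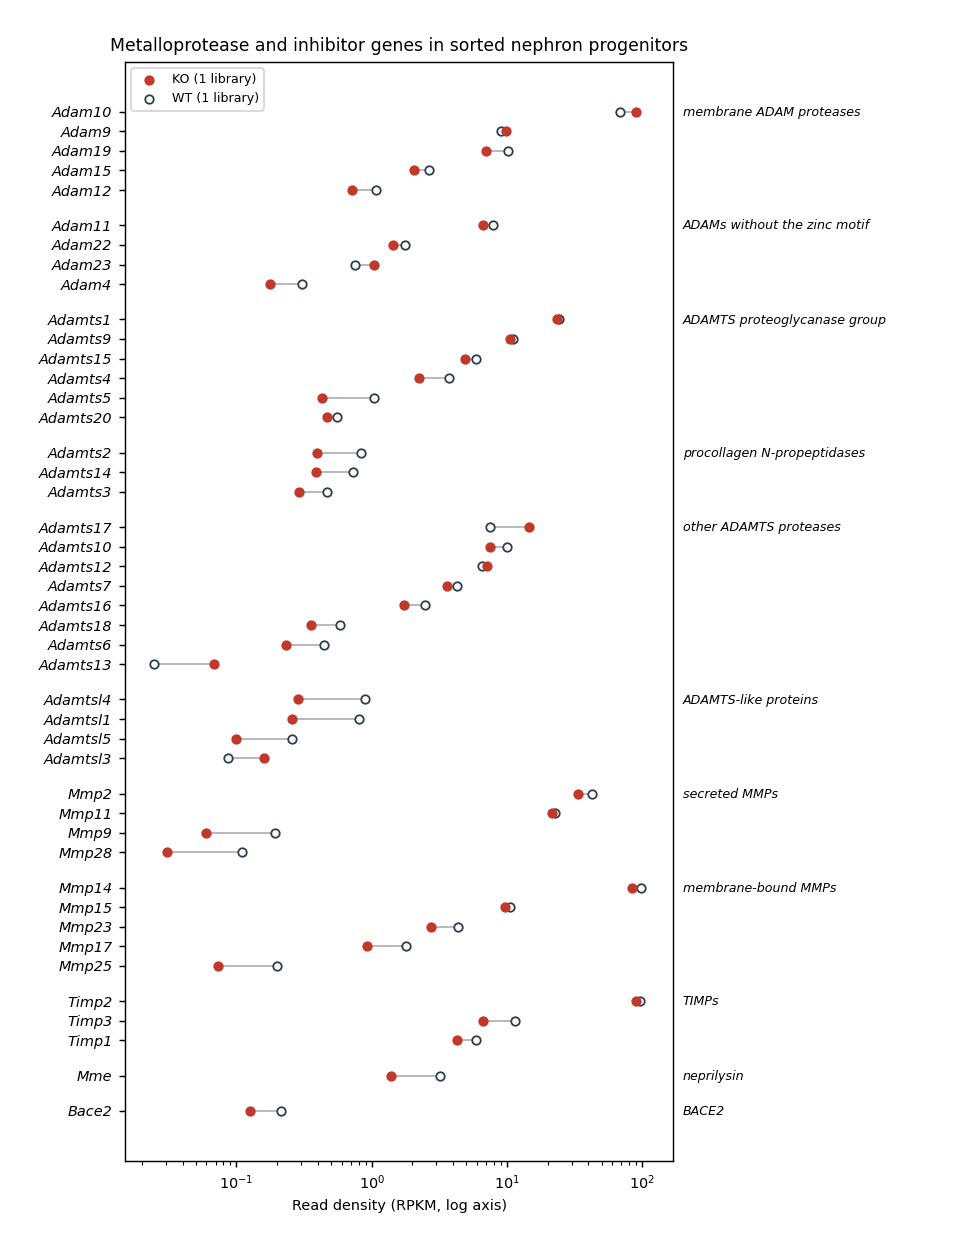
Read density in RPKM on a log axis for each of the 44 genes, grouped by role, with the KO library as filled points and the WT library as open points, 1 library each. Adamts17 stands out with 14.55 RPKM in KO against 7.44 RPKM in WT, while most other KO points lie left of their WT points.

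Levels spanned more than 3 orders of magnitude on the RPKM scale, with members between 0.0308 and 90.2 RPKM in KO and between 0.0245 and 98.5 RPKM in WT. The 5 members of highest mean density, Timp2, Mmp14, Adam10, Mmp2 and Adamts1, held 70.9% of the summed density of all members in KO and 68.4% in WT. Among them were the inhibitor Timp2, the membrane protease Mmp14 and the gelatinase Mmp2, known as partners because TIMP2 helps MMP14 to activate the MMP2 precursor.

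The membrane ADAM proteases were led by Adam10, the main enzyme that cuts Notch receptors and several cadherins. Adam10 (ENSMUSG00000054693, chromosome 9, 70678997 to 70780229, plus strand, GRCm38) had 89.5 RPKM in KO and 68.7 RPKM in WT, a ratio of 1.30 (95% exact interval 1.28 to 1.32). After a GC and length correction its log2 difference was 0.13, against 0.38 without it. Adam10 transcripts have a GC content of 42.1%, where the median GC content of members was 53.3%. Over all 9328 listed protein-coding genes with a gene model the rank correlation of GC content with the log2 difference was -0.44. Over the 44 members it was weaker, at -0.22. Both are Spearman correlations across genes, which share both libraries. Adam9, a sheddase of broad substrate range, was at 9.84 RPKM in KO and 9.02 RPKM in WT, a difference of 0.11 that was 0.041 after the same correction. The other 3 were lower in KO. Adam19, which cuts neuregulins, had 6.98 RPKM in KO and 10.2 RPKM in WT, a ratio of 0.683 (0.657 to 0.710). Adam15 had 2.05 RPKM in KO and 2.67 RPKM in WT. Adam12, known from muscle and placenta, had 0.720 RPKM in KO and 1.07 RPKM in WT. The summed density of these 5 genes was 109 RPKM in KO and 91.7 RPKM in WT, a difference carried by Adam10.

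The ADAMs that lack the zinc site act mainly as adhesion and receptor-like proteins, and Adam11, Adam22 and Adam23 are best known from neurons, where ADAM22 binds the secreted protein LGI1. Adam11 was at 6.66 RPKM in KO and 7.93 RPKM in WT, and Adam22 at 1.42 RPKM in KO and 1.75 RPKM in WT. Adam23 was the exception, at 1.04 RPKM in KO and 0.746 RPKM in WT, a ratio of 1.40 (1.30 to 1.51), and its log2 difference of 0.23 was 0.031 after the GC and length correction. Adam4, a gene known from testis, was near the lower end of the range, with 0.177 RPKM in KO and 0.306 RPKM in WT.

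All 6 genes of the proteoglycan-cutting ADAMTS group were lower in KO on the deposited densities, but Adamts1 and Adamts9 turned higher on centring. Adamts1, an enzyme that cleaves versican, had 23.4 RPKM in KO and 24.3 RPKM in WT, a ratio of 0.963 (0.938 to 0.989). Adamts9, another versicanase, was at 10.6 RPKM in KO and 11.02 RPKM in WT. Both differences, at -0.05, were smaller than the median of all listed protein-coding genes, -0.11. Adamts15 had 4.87 RPKM in KO and 5.91 RPKM in WT, and Adamts20, known from the coat colour of the belted mouse, 0.467 RPKM in KO and 0.558 RPKM in WT.

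The aggrecanases differed more. Adamts4 was at 2.22 RPKM in KO and 3.72 RPKM in WT, a ratio of 0.597 (0.550 to 0.648), and Adamts5 at 0.429 RPKM in KO and 1.04 RPKM in WT, a ratio of 0.411 (0.365 to 0.462). Adamts5 lies next to Adamts1 on chromosome 16, both on the minus strand: Adamts1 spans 85793827 to 85803113 and Adamts5 spans 85858170 to 85901125, which puts them 55057 bases apart. They were the only members less than a megabase apart, and their ratios of KO to WT density were 0.411 for Adamts5 and 0.963 for Adamts1. After the GC and length correction the log2 difference of Adamts5 was -0.78, against -0.52 without it, and it then passed 1.5-fold.

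The procollagen N-propeptidases, which trim the amino ends of fibrillar procollagens, were all lower in KO and all under 1 RPKM. Adamts2 was at 0.393 RPKM in KO and 0.831 RPKM in WT, a ratio of 0.472 (0.412 to 0.540). Adamts14 had 0.389 RPKM in KO and 0.721 RPKM in WT, and Adamts3, which also processes the lymphatic growth factor VEGF-C, 0.290 RPKM in KO and 0.469 RPKM in WT. Of the fibrillar collagen genes listed, Col2a1 was higher in KO, at 36.5 RPKM in KO and 25.4 RPKM in WT. Col1a1, Col1a2, Col3a1 and Col5a1 were lower, with Col1a1 at 7.82 RPKM in KO and 37.8 RPKM in WT and Col3a1 at 6.32 RPKM in KO and 26.1 RPKM in WT. Stromal markers were lower in 17 of 18 listed genes, with none at 0 in either library, and summed to 185 RPKM in KO and 381 RPKM in WT. Their part in the lower propeptidase densities was not tested.

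Among the remaining ADAMTS proteases Adamts17 went the other way. Adamts17 (ENSMUSG00000058145, chromosome 7, 66839735 to 67152625, plus strand) encodes an enzyme linked in humans to a Weill-Marchesani-like syndrome of short stature and lens defects, and tied to fibrillin microfibrils. Its density was 14.55 RPKM in KO and 7.44 RPKM in WT, from an estimated 9674 reads in KO and 5269 in WT, a ratio of 1.96 (1.89 to 2.02). Its log2 difference of 0.88 was 0.87 after the GC and length correction. Adamts10, whose human counterpart is also mutated in Weill-Marchesani syndrome, was at 7.52 RPKM in KO and 9.95 RPKM in WT, so this pair differed in opposite directions. Adamts6, a close relative of Adamts10, had 0.232 RPKM in KO and 0.446 RPKM in WT. Of the fibrillin genes, Fbn1 was at 4.62 RPKM in KO and 5.71 RPKM in WT, and Fbn2 at 43.6 RPKM in KO and 38.8 RPKM in WT.

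The other 5 of this group lay between 0.0245 and 7.14 RPKM over both libraries. Adamts12 was at 7.14 RPKM in KO and 6.51 RPKM in WT, and its relative Adamts7, which like it cuts cartilage oligomeric matrix protein, at 3.58 RPKM in KO and 4.26 RPKM in WT. The difference of Adamts12 was 0.12 and turned to -0.080 after the GC and length correction. Adamts16 had 1.73 RPKM in KO and 2.49 RPKM in WT, and Adamts18 had 0.354 RPKM in KO and 0.581 RPKM in WT. Adamts13, the liver enzyme that cuts von Willebrand factor, was barely detected, at 0.0688 RPKM in KO and 0.0245 RPKM in WT, from an estimated 29 reads in KO and 11 in WT, and the interval of its ratio ran from 1.36 to 6.23.

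The ADAMTS-like genes encode matrix proteins that resemble ADAMTS enzymes without a protease domain, and several bind fibrillin. All 4 were under 1 RPKM. Adamtsl4, mutated in humans with displaced lenses, was at 0.284 RPKM in KO and 0.890 RPKM in WT, a ratio of 0.319 (0.253 to 0.399). Adamtsl1 was at 0.258 RPKM in KO and 0.802 RPKM in WT, and Adamtsl5 at 0.0989 RPKM in KO and 0.258 RPKM in WT. Adamtsl3 was higher in KO, at 0.160 RPKM against 0.0865 RPKM in WT, from an estimated 106 reads in KO and 61 in WT, and its log2 difference of 0.095 was 0.035 after the GC and length correction.

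All 9 MMP genes were lower in KO on the deposited densities, with Mmp11 at 0.067 and Mmp15 at 0.0013 on the log2 scale after centring. Mmp14, the collagenase of the cell membrane (ENSMUSG00000000957, chromosome 14, 54431604 to 54441258, plus strand), was at 84.5 RPKM in KO and 98.5 RPKM in WT, a ratio of 0.859 (0.848 to 0.869). Mmp2, the gelatinase that it activates (ENSMUSG00000031740, chromosome 8, 92827328 to 92853417, plus strand), was at 33.5 RPKM in KO and 42.3 RPKM in WT, a ratio of 0.793 (0.772 to 0.814). Both ratios lay within 1.5-fold. Mmp11, stromelysin-3, which is activated inside the cell by furin, was at 21.6 RPKM in KO and 22.8 RPKM in WT, and its difference of -0.074 became 0.0079 after the GC and length correction.

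The other membrane-bound MMPs had lower ratios of KO to WT density the lower their density was. Mmp15 was at 9.59 RPKM in KO and 10.6 RPKM in WT. Mmp23, an unusual member anchored by its amino end, was at 2.76 RPKM in KO and 4.33 RPKM in WT. Mmp17 and Mmp25 encode enzymes held by a lipid anchor. Mmp17 was at 0.925 RPKM in KO and 1.79 RPKM in WT, a ratio of 0.517 (0.465 to 0.574), and Mmp25 at 0.0727 RPKM in KO and 0.198 RPKM in WT. Among secreted enzymes Mmp9, the gelatinase typical of neutrophils and macrophages, was at 0.0594 RPKM in KO and 0.192 RPKM in WT, and Mmp28, epilysin, at 0.0308 RPKM in KO and 0.109 RPKM in WT, from an estimated 10 reads in KO and 39 in WT. Leukocyte markers were lower in KO in 11 of 11 listed genes, with none at 0, and summed to 2.85 RPKM in KO and 17.8 RPKM in WT. Their part in the Mmp9 values was not tested.

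**Figure D2:**
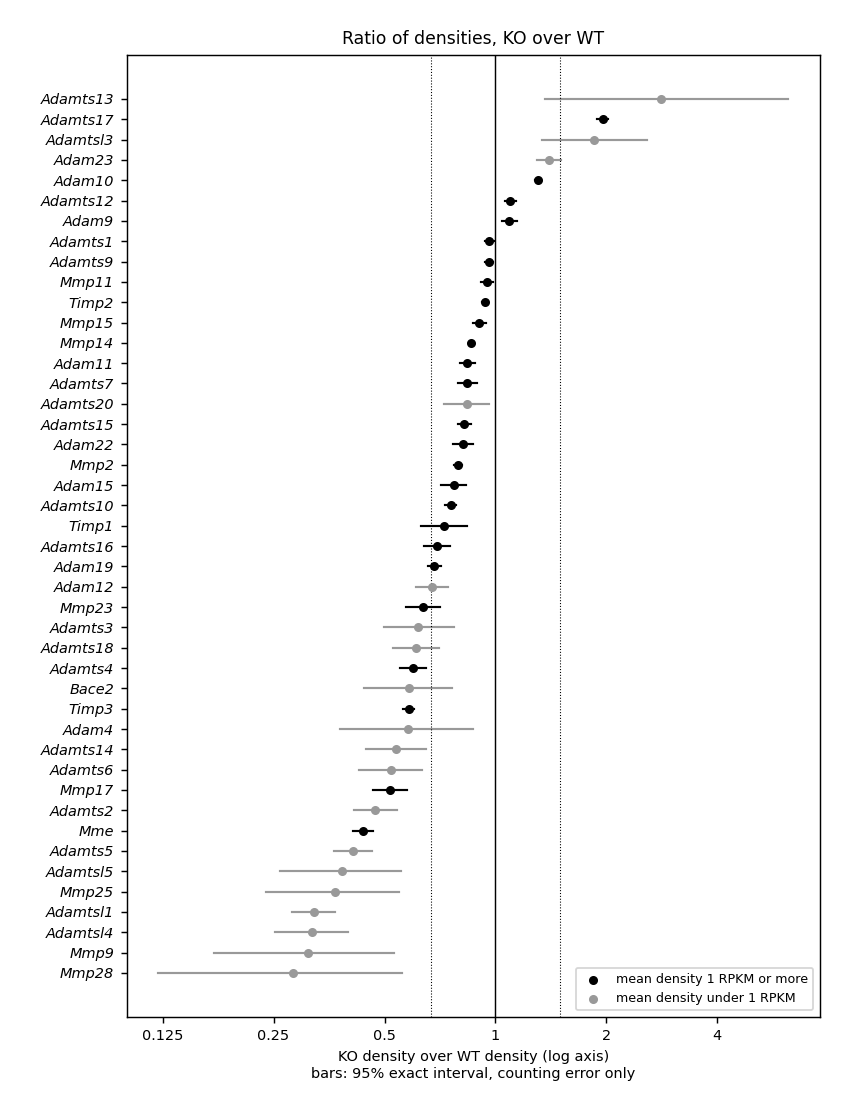
Ratio of KO density to WT density on a log axis for the 44 genes in order, with 95% exact intervals for counting error; black marks a mean density of 1 RPKM or more, grey a lower one, and dotted lines mark 1.5-fold either way. Of the genes at 1 RPKM or more, Adamts17 lies past the upper line and Mmp23, Adamts4, Timp3, Mmp17 and Mme past the lower one.

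The 3 listed inhibitors were lower in KO by unequal amounts on the deposited densities, with Timp2 turning higher on centring. Timp2, which both inhibits MMPs and serves in the activation of MMP2 (ENSMUSG00000017466, chromosome 11, 118301069 to 118355740, minus strand), was at 90.2 RPKM in KO and 96.5 RPKM in WT, a ratio of 0.935 (0.920 to 0.949), and the log2 of that ratio became 0.048 on centring. Timp1, a secreted inhibitor whose gene is on the X chromosome, was at 4.30 RPKM in KO and 5.94 RPKM in WT, a ratio of 0.724 (0.627 to 0.835).

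Timp3, the inhibitor that stays bound to the matrix and also blocks ADAM17 and the aggrecanases, differed most of the 3. Timp3 (ENSMUSG00000020044, chromosome 10, 86300372 to 86349506, plus strand) was at 6.67 RPKM in KO and 11.5 RPKM in WT, a ratio of 0.582 (0.561 to 0.603). Exons of Syn3 on the other strand cover 21.3% of its exon length, and whether counting used the strand is not given in the sources used here, so reads of the 2 genes may not be told apart. Syn3 itself was low, at 0.278 RPKM in KO and 0.370 RPKM in WT. Summed over the 3 inhibitors the density was 101 RPKM in KO and 114 RPKM in WT. The aggrecanase genes Adamts4 and Adamts5, whose products TIMP3 blocks, were lower in the same library, as given above.

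Mme had the lowest log2(density + 1) difference of all members. It encodes neprilysin, a zinc peptidase of the cell surface that degrades small peptides and is found in the proximal tubule brush border and on podocytes. Mme (ENSMUSG00000027820, chromosome 3, 63295872 to 63382231, plus strand) was at 1.39 RPKM in KO and 3.19 RPKM in WT, a ratio of 0.437 (0.410 to 0.466) and a log2 difference of -0.81. After the GC and length correction the difference was -1.11, and with a pseudocount of 4 it was -0.41. Podocyte and tubule markers were lower in KO in 13 of 13 listed genes, with none at 0, and summed to 60.7 RPKM in KO and 116 RPKM in WT. Wt1 alone held 41.2 RPKM of that sum in KO and 43.4 RPKM in WT, so the other genes differed more than the sum. The proximal tubule transporter Slc34a1 was at 1.07 RPKM in KO and 13.4 RPKM in WT. The part of these markers in the Mme difference was not tested. Bace2 was at 0.125 RPKM in KO and 0.214 RPKM in WT, a ratio of 0.584 (0.440 to 0.763).

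Members of low density more often differed by at least 1.5-fold in the plain ratio of KO to WT density, as did other low-density genes of the table. Of the 19 members with a mean density under 1 RPKM, 16 were lower in KO, or 84.2%, where 85.0% of all listed protein-coding genes under 1 RPKM were. Of these 19, 14 were at least 1.5-fold lower by the plain ratio, or 73.7%, beside 75.3%, and 2 were at least 1.5-fold higher, Adamts13 and Adamtsl3, beside 10.9%. Of the 25 members at 1 RPKM or more, 21 were lower, or 84.0%, beside 58.3% of all listed protein-coding genes at that level. Of the same 25, 5 were at least 1.5-fold lower by the plain ratio, or 20%, beside 8.02%, and 1 was at least 1.5-fold higher, or 4.0%, beside 1.47%. Over all 44, 19 members (43.2%) were at least 1.5-fold lower by the plain ratio, beside 21.7% of all listed protein-coding genes. Another 3 (6.82%) were at least 1.5-fold higher, beside 3.38%. The class under 1 RPKM held 19 of the 44 members but 1906 of all 9388 listed protein-coding genes. A gene with few reads needs a large ratio to pass the authors' p-value, so low-density members without one would not be in the table.

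**Figure D3:**
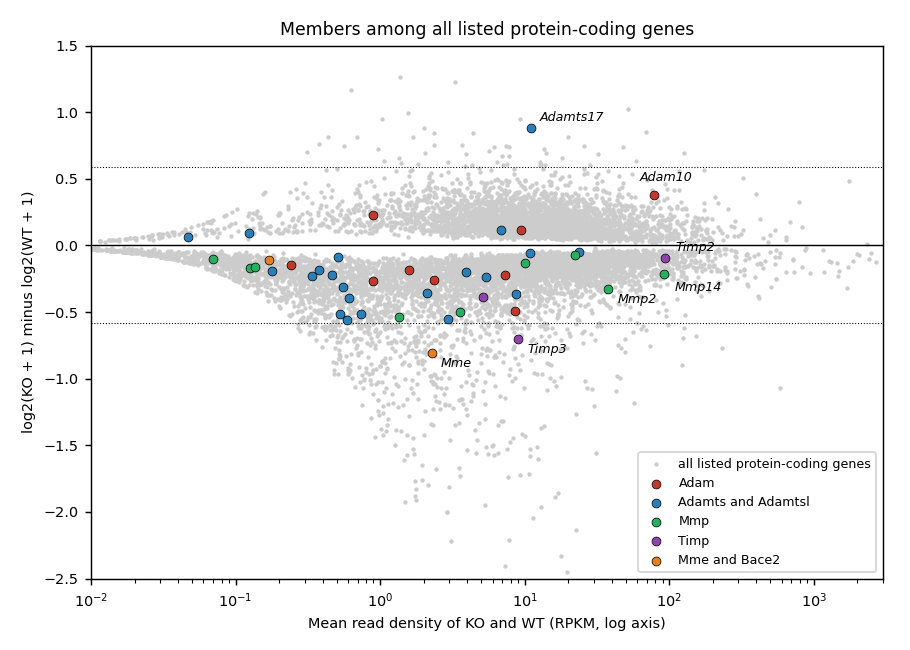
Difference on the log2(density + 1) scale against mean density (log axis) for the 44 members, coloured by family, and for all listed protein-coding genes in grey; 23 grey genes lie outside the axes and dotted lines mark 1.5-fold. Adamts17 lies above the upper line, Timp3 and Mme below the lower one, and the gap along 0 is where genes not listed in the deposited table would lie.

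Partner genes of these enzymes were set beside all listed protein-coding genes, of which 63.7% were lower in KO and 5.6% at least 1.5-fold lower. The 1.5-fold counts of all partner lists are on the log2(density + 1) scale. Of 30 named activators and inhibitors of proteases outside the families, 24 were in the table, with 22 lower (91.7%), 4 of them at least 1.5-fold (16.7%), and a median log2 difference of -0.19, beside -0.11 for all listed protein-coding genes. Plau, the urokinase that starts the plasmin cascade, was at 0.842 RPKM in KO and 3.65 RPKM in WT. The serpin gene Serpine2, an inhibitor of such proteases, was at 5.88 RPKM in KO and 10.8 RPKM in WT. Sfrp1, whose product can also inhibit ADAM10, had 15.2 RPKM in KO and 24.05 RPKM in WT, and Spint2, an inhibitor of serine proteases, 18.03 RPKM in KO and 27.6 RPKM in WT. These were the 4 listed genes furthest from 0 on the log2(density + 1) scale.

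Cell surface substrates were closer to even, with 11 of 20 listed genes lower in KO (55%), 9 higher, and a median of -0.13. Notch1 was at 7.71 RPKM in KO and 6.86 RPKM in WT, and Notch2, the receptor needed for proximal nephron fates, at 31.1 RPKM in KO and 28.7 RPKM in WT. The other Notch receptor genes were lower in KO, Notch3 at 16.3 RPKM in KO and 19.8 RPKM in WT and Notch4 at 0.675 RPKM in KO and 0.930 RPKM in WT. Cd44, a hyaluronan receptor cut by several of the enzymes, had 2.10 RPKM in KO and 1.11 RPKM in WT. Lrp1, an endocytic receptor that clears several of the proteases, had 4.72 RPKM in KO and 6.85 RPKM in WT. Tgfa, a growth factor gene, had 13.8 RPKM in KO and 11.06 RPKM in WT. Tnfrsf1b, Dll1, Tnfrsf1a and Sdc4, all lower in KO, differed more than Tgfa on the log2(density + 1) scale. On the log2(density + 1) scale the only one at least 1.5-fold lower was Cdh1, which encodes E-cadherin and marks epithelial cells. Cdh1 was at 1.44 RPKM in KO and 3.33 RPKM in WT. By the plain ratio of KO to WT density, Tnfrsf1b (0.375) and Nrg1 (0.387), both under 1 RPKM, also passed that size. Cd44, with a plain ratio of 1.89, passed it the other way.

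Matrix substrates and fibrillin-related genes were lower in 15 of 20 (75%), 9 of them at least 1.5-fold (45%), with a median of -0.47. Without the genes that also stand in the stromal marker list, 10 of 15 were lower (66.7%), 4 of them at least 1.5-fold (26.7%), with a median of -0.26. Col1a2 was at 4.51 RPKM in KO and 17.1 RPKM in WT, and Lum, which encodes a small proteoglycan of collagen fibrils, at 2.34 RPKM in KO and 8.55 RPKM in WT, next to the collagen genes Col1a1 and Col3a1 given above. Versican, the substrate of the Adamts1 group, was high in both libraries, with Vcan at 187 RPKM in KO and 173 RPKM in WT. Other zinc metallopeptidases outside the families were lower in 12 of 17 listed genes (70.6%), 6 of them at least 1.5-fold (35.3%), with a median of -0.26. Among those that differed most were peptidases of the tubule brush border, Mep1a at 0.440 RPKM in KO and 5.72 RPKM in WT, Anpep at 3.98 RPKM in KO and 12.5 RPKM in WT, and Mep1b at 0.107 RPKM in KO and 1.98 RPKM in WT.

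**Figure D4:**
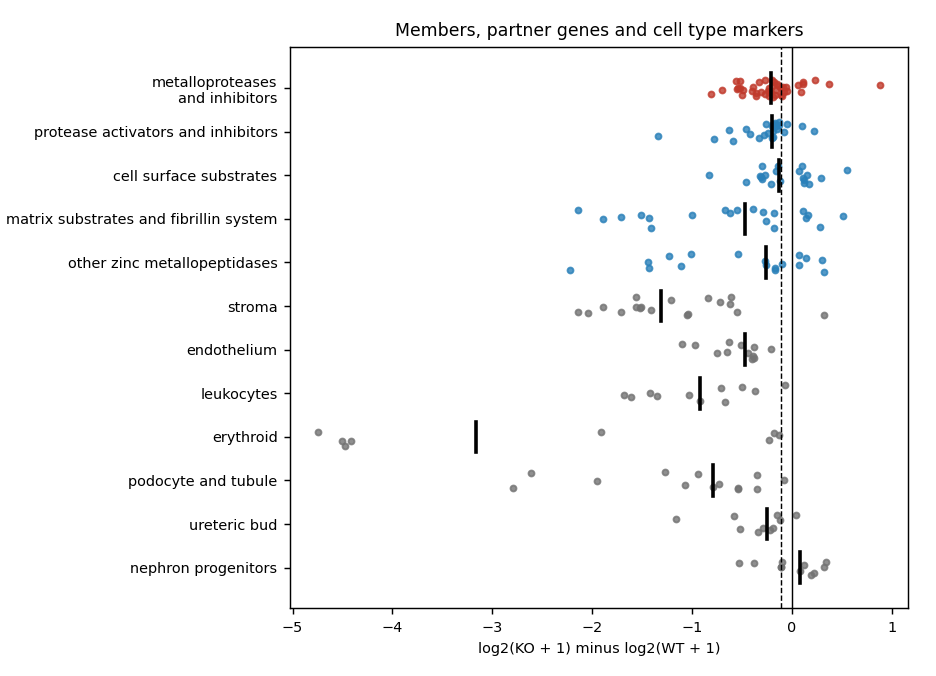
Difference on the log2(density + 1) scale for the 44 members (red), partner genes (blue) and cell type markers (grey), with 1 point a gene, a thick bar at each median and a dashed line at the median of all listed protein-coding genes, -0.11. The members' median of -0.21 lies near that line, while the stromal and erythroid medians lie at -1.31 and -3.16.

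The promoters of the members were searched for the p53 half-site, the 10-base motif to which p53 binds in pairs, which reads the same on both strands. RefSeq promoters (GRCm38.p6) of 250 bases before to 50 bases after the gene start were at hand for 28 of the 44 members. A half-site was found for 2 members, in 6.06% of 33 member promoters, beside 8.36% of all 32851 promoters of the same length. The median GC content was 66.0% for member promoters and 52.7% for all, so these shares are not matched for base composition. The half-sites are shown because p53 is the deleted factor, with the matching letters in capitals. Adamts13 has one on the plus strand at chr2:26973240-26973279, with the site at position -161 from its start, and Adamtsl4 one on the minus strand at chr3:95688074-95688113, with the site at position -181.
Adamts13: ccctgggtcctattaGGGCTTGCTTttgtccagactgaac
Adamtsl4: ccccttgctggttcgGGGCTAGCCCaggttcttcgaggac
Adamts13 was higher and Adamtsl4 lower in KO, both under 1 RPKM. Adamts17 was not among the 2 members with a half-site.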

How the data were processed

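The submitters' processing notes name CASAVA 1.8, Novoalign 2.08.02, FastQC, GRCm38 and mm10, without saying what each was used for. Counting rules and strandedness are not stated there. The authors deposited 1 read density per library, read here as RPKM from its values because the header says only density. Per the file headers the table also gives a p-value, its corrected form, a fold ratio and a signed fold score for KO against WT. The authors' fold ratio equals 1.04 times that of the densities.

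Depth was inferred from genes at 0 in 1 library: their fold values were whole multiples of a common step, within 0.01, for 150 of 171 genes at 0 in KO and 70 of 75 at 0 in WT. Of the genes at whole multiples with a gene model, 100 of 149 gave a depth close to the median used for WT. For KO 48 of 67 did. Reads were estimated from density, GENCODE vM21 exon length and this depth, so they are approximate, as are the exact (Clopper-Pearson) 95% intervals built on them.

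Differences of log2(density + 1), a 1.5-fold size rule, medians and counts were computed with Python 3.11.15, pandas 2.3.3 and SciPy 1.17.1. The GC and length correction subtracted, for each gene, the median over its class of 10 GC by 4 length classes. It then added back the median over all listed genes with a gene model. A corrected difference is therefore not an offset from the gene's own class. Intervals were planned for members past 1.5-fold and the 5 of highest mean density, and partner genes were to be named up to 4 a list by size; 1 of these is not reported here. Intervals of other members, and Col2a1, Fbn1, Fbn2, Vcan, the Notch genes and Slc34a1, were chosen after their values were seen. So were Wt1, Hoxb7, Etv5, Aqp2, Wnt11, Tnfrsf1b, Nrg1, Tgfa, Dll1, Tnfrsf1a and Sdc4. Members and lists were chosen with earlier results of these data known. Only the log2 difference and the 1.5-fold size rule were tried on simulated data, in genes of higher density. The depth estimate, intervals, GC and length correction and sequence searches were not. Alternatives are given in the closing section.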

Additional observations from a re-analysis of the deposited data

How the results depend on the processing

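With a pseudocount of 0.25, 10 of the 44 members were at least 1.5-fold lower in KO, beside 12.4% of all listed protein-coding genes. The median was -0.37. With one of 4 there were 0, beside 1.83%, and the median was -0.098. By the plain ratio with no pseudocount, an alternative chosen after seeing the data, 19 (43.2%) were lower and 3 (6.82%) higher at 1.5-fold. The shares of all listed protein-coding genes were 21.7% and 3.38%, and the members' median was -0.50. That ratio centred, added after seeing the data, gave 16 of 44 lower and 4 of 44 higher, with a median of -0.35. The shares of all listed protein-coding genes were then 18.7% and 5.53%. Centring on the log2(density + 1) scale left a median of -0.097, with 30 of 44 members lower; that shift also turned Adamts20, Bace2 and Mmp28, whose ratios of KO to WT density were 0.837, 0.584 and 0.282. A floor of 1 RPKM left 21 of 25 lower, beside 58.3% of all listed protein-coding genes at that level. In the upper 50% by density 11 of 14 were lower, 1 of them at least 1.5-fold. Without the 8 members whose exons overlap another gene, also chosen after seeing the data, 1 was at least 1.5-fold lower. At 2-fold there were 0 higher and 0 lower. Apart from the stricter size and the fewer genes, the cause was not tested. No share over all listed protein-coding genes is at hand for the upper 50%, the set without overlaps or the 2-fold size. Those counts therefore cannot be set against genes in general. Adamts17 was at least 1.5-fold higher under each alternative at that size. Of 308 differences of single members under 7 alternatives, 15 changed sign, none of them past 1.5-fold on the log2(density + 1) scale. No paired analysis was possible because there is 1 library per genotype. Depth limits the 8 members with under 100 estimated reads in a library.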
